A study of Mus musculus with 8 samples.

Results

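Small nucleolar RNA (snoRNA) genes were examined in total RNA of mouse embryonic stem cells (ESCs) depleted of ZZZ3 or YEATS2. They were taken as the genes whose symbol begins with *Snord* or *Snora* followed by a digit and whose raw count averaged at least 10 over the 8 libraries. Of 55401 genes counted, 141 had such a symbol and 50 reached that mean, 36 of 99 C/D (*Snord*) genes and 14 of 42 H/ACA (*Snora*) genes. The choice rests on these same counts, so the levels that placed a gene in the set are given as a description. Just outside it were *Snord89*, *Snord71* and *Snord37* with means of 7.12, 7.5 and 9 counts, and just inside were *Snord42b* with 10.2, *Snord8* with 11.4, and *Snora30* and *Snord66* tied at 11.9.

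The 8 libraries came from ESCs, the pluripotent cells of the early embryo kept in culture, grown on gelatin in serum with leukemia inhibitory factor and the 2i inhibitors CHIR99021 and PD0325901. Per the methods, cells were held in G418, which selects for those expressing Tir1. The methods do not say this of the controls in particular. Tir1 is the plant F-box protein that leads to degradation of proteins carrying an auxin-inducible degron (AID) when auxin is added. The groups were 2 control, 3 Zzz3_auxin and 3 Yeats2_auxin libraries, the latter from cells with AID-tagged ZZZ3 or YEATS2 given 500 µM auxin for 24 h. ZZZ3 and YEATS2 are subunits of ATAC (Ada-two-A-containing), a histone acetyltransferase coactivator complex. The line and treatment of the controls are not in the labels, so depletion, auxin exposure and line cannot be told apart in a comparison with control, and nothing states whether a tagged line is 1 clone. Since no label ties libraries to separate cultures, P values measure the spread between libraries, which may be technical. Assigned reads numbered from 14315120 (Zzz3_auxin replicate 3) to 27884704 per library. *Zzz3* mRNA averaged 184 ± 3.23 CPM (TMM-scaled counts relative to library size) in the controls (SD, n = 2) and 95.5 ± 17.3 in Zzz3_auxin (SD, n = 3), with an adjusted P of 0.0187. *Yeats2* mRNA was at 93.4 ± 3.51 and, in Yeats2_auxin, 74.8 ± 29.9 CPM, with an adjusted P of 0.605, although auxin acts on the protein, so mRNA does not check the depletion. The 8 ESC markers summed to 4143 to 4904 CPM in every library and the 5 fibroblast markers to at most 2.19. All marker values are CPM per total of assigned reads, without TMM scaling. Within the ESC sum, *Pou5f1* was at 269 and 415 CPM in the controls and at 460 to 609 in the auxin libraries. *Nanog* lay on the other side, at 727 and 754 in the controls and 556 to 683 in the auxin libraries. The 3 neural markers summed to 40.2 and 41.9 CPM in the controls, 50.5 to 71.6 in Zzz3_auxin and 44.9 to 49.8 in Yeats2_auxin, above both controls in every auxin library. Most of that sum was *Nes*, at 35.5 CPM in both controls, 44.6 to 68.0 in Zzz3_auxin and 41.7 to 47.5 in Yeats2_auxin. *Sox1* did not rise with it. It was at 4.44 and 5.64 CPM in the controls and 0.767 to 4.89 in Zzz3_auxin. In Yeats2_auxin *Sox1* was at 2.01 to 2.89, below both controls. *Pax6* was at 0.287 to 2.80 CPM over all libraries, and its groups overlapped control. The sums of mesoderm, endoderm and trophectoderm markers (3 each) overlapped between control and either depletion. The part of these markers in the snoRNA values was not tested.

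snoRNAs are short noncoding RNAs of the nucleolus. Box C/D snoRNAs pair with ribosomal RNA and guide 2′-O-methylation by fibrillarin, whereas box H/ACA snoRNAs guide pseudouridylation by dyskerin, and a few, such as U8 (*Snord118*) and U17 (*Snora73a*, *Snora73b*), are required for cleavage of the rRNA precursor instead. In mammals most are released from introns of host genes, many of which encode ribosomal proteins or are themselves noncoding, such as *Gas5* and the *Snhg* genes.

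Among the 50 genes, 14 lay in ribosomal protein genes as told by an *Rpl* or *Rps* symbol with a digit. A further 24 lay in other protein-coding genes (*Rpsa*, which also encodes a ribosomal protein and holds *Snora62*, among them). Noncoding hosts held 7, and 5 lay in no host gene of the annotation used, which may lack some hosts. C/D genes were 65 to 238 nt long (median 79.5) against 128 to 205 nt for H/ACA genes (median 134.5). The sequences below are those on which the results turn, 5′ to 3′, from the GENCODE transcripts of GRCm38. *Snord34* (chr7:45126601-45126670), *Snord32a* (chr7:45127382-45127464) and *Snord35a* (chr7:45126346-45126435) all sit on the minus strand within *Rpl13a* and behaved unequally. *Snord43* (chr15:80082847-80082954) and *Snord83b* (chr15:80078498-80078591), minus strand, share *Rpl3*, and *Snord49a* (chr11:62603450-62603521, plus strand, host *2410006H16Rik*) had the smallest P value in Zzz3_auxin. *Snord118* (chr11:69073427-69073561, plus strand) has no annotated host. Capitals mark TGATG, the core of box C, within the first 25 bases and CTGA, box D, within the last 20.
Snord34: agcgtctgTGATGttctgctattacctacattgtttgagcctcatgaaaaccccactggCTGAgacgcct
Snord32a: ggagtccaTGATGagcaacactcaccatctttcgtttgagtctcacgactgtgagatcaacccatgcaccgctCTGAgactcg
Snord35a: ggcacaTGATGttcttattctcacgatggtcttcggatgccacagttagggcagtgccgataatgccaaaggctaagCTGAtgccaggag
Snord43: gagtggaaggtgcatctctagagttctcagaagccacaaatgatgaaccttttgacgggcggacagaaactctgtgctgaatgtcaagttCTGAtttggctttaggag
Snord83b: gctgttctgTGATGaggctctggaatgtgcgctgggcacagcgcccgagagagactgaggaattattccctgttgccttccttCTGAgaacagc
Snord49a: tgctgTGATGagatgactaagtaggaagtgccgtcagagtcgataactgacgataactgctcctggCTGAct
Snord118: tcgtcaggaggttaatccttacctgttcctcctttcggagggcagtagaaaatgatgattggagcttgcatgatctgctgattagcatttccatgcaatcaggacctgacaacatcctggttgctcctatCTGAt

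The most abundant H/ACA gene, *Snora73b* (chr4:132352322-132352526, minus strand), is shown with its near copy *Snora73a* (chr4:132352775-132352979, minus strand). They are 7 edits apart (96.6% identity), so reads that matched both would have been dropped by the counting of unique alignments. The same limit holds for other members with near copies. Among these are *Snord93* (1 edit), *Snora30* (2 edits), and *Snora21* and *Snora41* (3 edits each). Others are *Snord58b* (4 edits), *Snord88c* (5 edits), and *Snora57* and *Snord118* (6 edits each). Capitals mark ACA, the box that stands 3 bases before the end.
Snora73b: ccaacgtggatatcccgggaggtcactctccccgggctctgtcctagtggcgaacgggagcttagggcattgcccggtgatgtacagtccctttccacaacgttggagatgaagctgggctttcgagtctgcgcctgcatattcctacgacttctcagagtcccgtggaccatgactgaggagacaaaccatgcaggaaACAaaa
Snora73a: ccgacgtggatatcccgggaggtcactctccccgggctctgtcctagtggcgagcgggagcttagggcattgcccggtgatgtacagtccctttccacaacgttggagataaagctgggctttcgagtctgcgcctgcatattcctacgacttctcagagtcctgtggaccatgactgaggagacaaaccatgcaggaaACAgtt

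TGATG stood in the first 25 bases of 31 of 36 C/D genes and CTGA in the last 20 of 35, and 30 (83.3%) held both, which the complementary strand of none did. Of 4066 other small RNA genes of 60 to 250 bases, 0.172% held both motifs. ACA stood 3 bases before the end in 13 of 14 H/ACA genes (92.9%) and in 2.21% of those other genes. The motifs share the letters TGA, and the windows searched do not overlap in genes of these lengths. The *Snord43* and *Snord118* sequences hold no TGATG within their first 25 bases, which says only that these letters are not in that window.

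Which snoRNA genes had counts at all followed their position relative to exons. All 57 genes that lie wholly within an exon of another gene on the same strand had 0 counts in every library, among them *Snord33* (the other *Rpl13a* snoRNA), *Snord14a*, *Snord14c*, *Snord14d* and *Snord14e* (U14), *Snord22* (U22) and *Snora74a* (U19). HTSeq in union mode leaves a read that falls in 2 genes unassigned, so a count of 0 for these does not speak to whether the RNA was present. The 12 genes partly inside such an exon averaged at most 29.2 counts, and 5 of them (*Snora2b*, *Snora73a*, *Snord111*, *Snord42b*, *Snord66*) are members. In contrast, the 3 genes wholly within an exon of the opposite strand alone, *Snora73b*, *Snord42a* and *Snord4a*, averaged 4321, 67 and 58.9 counts. Of the 69 genes that overlap no exon, 42 are members and 18 had 0 counts. Reads from unspliced host RNA that cover a snoRNA are counted to the snoRNA, so mature snoRNA and host intron RNA cannot be told apart in these counts.

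Per length, *Snora73b* and *Snord34* led the set, with 88.6 and 74.2 CPM per 100 nt over the 8 libraries, followed by *Snord32a* with 40.1, *Snord49a* with 19.2, *Snora17* with 17.3 and *Snord43* with 15.0. Together the C/D genes took 141 to 261 CPM (here per total of assigned reads), and the H/ACA genes 96.9 to 366. The controls had C/D sums of 210 and 261, Zzz3_auxin 141, 196 and 239, and Yeats2_auxin 205, 251 and 189, so the groups overlapped. H/ACA sums were 295 and 366 in the controls, 96.9, 245 and 227 in Zzz3_auxin and 288, 343 and 243 in Yeats2_auxin. Every Zzz3_auxin sum lay below both controls, lowest in replicate 1, and *Snora73b* alone made up most of each control sum. Without *Snora73b* the H/ACA sums were 78.3 and 101 in the controls and 46.8, 78.8 and 99.4 in Zzz3_auxin, which overlapped. The log2 ratio of Zzz3_auxin to control over group means was -0.80 with *Snora73b* and -0.26 without it. With *Snora73b* it ranged from -1.03 without Zzz3_auxin replicate 2 to -0.49 without Zzz3_auxin replicate 1.

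**Figure D1:**
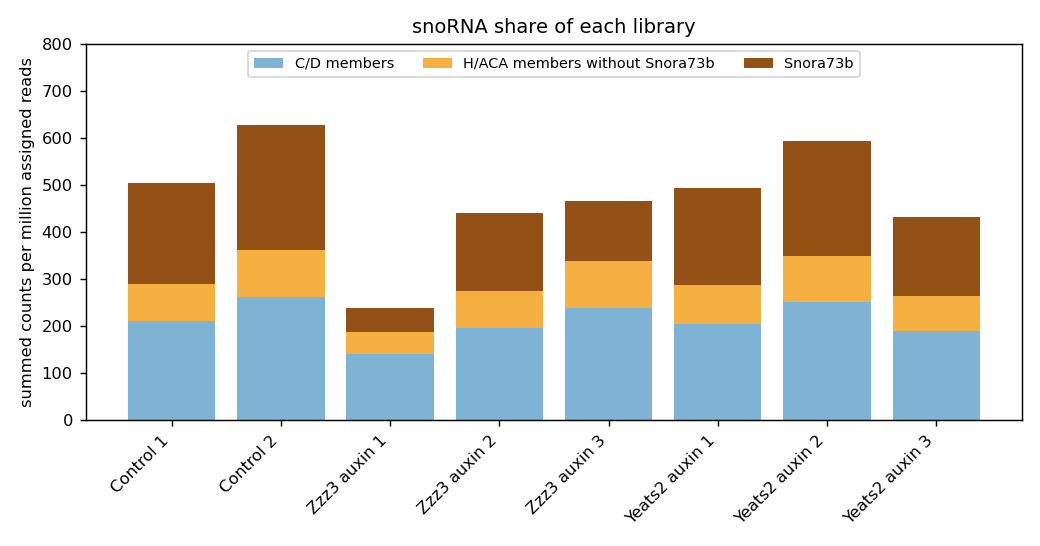
Stacked bars show the summed CPM (per total of assigned reads) of the 36 C/D genes, the 13 H/ACA genes other than *Snora73b*, and *Snora73b*, in each of the 8 libraries. Zzz3_auxin replicate 1 had the lowest sums, 141 for C/D and 96.9 for H/ACA, and the *Snora73b* band varied most.

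No member passed the test in any comparison. By edgeR's quasi-likelihood test with Benjamini-Hochberg adjustment over the 17532 genes tested, 0 of 50 were called at an adjusted P under 0.05 in Zzz3_auxin against control, where 0.753% of all genes were called (0.496% higher, 0.257% lower), and 0 of 50 in Yeats2_auxin against control, where 0.445% were (0.331% higher, 0.114% lower). The direct comparison of both depletions called 0 of 50 members and 0.0% of all genes. The lowest adjusted P was 0.0801 for *Snord49a* in Zzz3_auxin, 0.159 for *Snora69* in Yeats2_auxin and 0.779 for *Snord4a* between the depletions. DESeq2, which gave an adjusted P to 33 of the 50 members in Zzz3_auxin, called 2 of them there (*Snord49a* and *Snord83b*), against 7.81% of the 13808 genes with an adjusted P. In Yeats2_auxin it called 0 of 36, against 2.75% of 14447 genes, and between the depletions 0 of 50.

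The values of most snoRNAs lay below control in both depletions, in C/D and H/ACA genes alike. In Zzz3_auxin 42 of 50 members had a negative log2 fold change (FC), against 48.9% of all genes, and 40 of 50 did in Yeats2_auxin, against 51.1%. The median log2 FC of C/D genes was -0.55 in Zzz3_auxin and -0.31 in Yeats2_auxin, and that of H/ACA genes -0.49 and -0.33, beside 0.01 and -0.01 over all genes tested. At an unadjusted P under 0.05, 16 members were lower in Zzz3_auxin (13 C/D and 3 H/ACA), where 10.1% of all genes were, and 4 in Yeats2_auxin, where 6.98% were, which is near that background. None was higher at that threshold, beside 11.6% and 7.65% of all genes. Both comparisons use the same 2 control libraries, so the values are given side by side and are not independent of each other. In bulk RNA, fewer cells that make a snoRNA and less of it per cell cannot be told apart.

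By library, the median C/D gene stood at -0.50, -0.28 and -0.38 in Zzz3_auxin and at -0.25, -0.22 and -0.28 in Yeats2_auxin, in log2(CPM + 0.5) relative to the control mean. The control libraries themselves were at -0.04 and 0.04. The median H/ACA gene stood at -0.71, -0.26 and -0.20 in Zzz3_auxin and at -0.26, -0.10 and -0.37 in Yeats2_auxin, with controls at 0.02 and -0.02. All 6 depleted libraries lay below both controls for either class, and Zzz3_auxin replicate 1 was the lowest. Without that library the Zzz3_auxin medians were -0.42 for C/D and -0.25 for H/ACA.

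**Figure D2:**
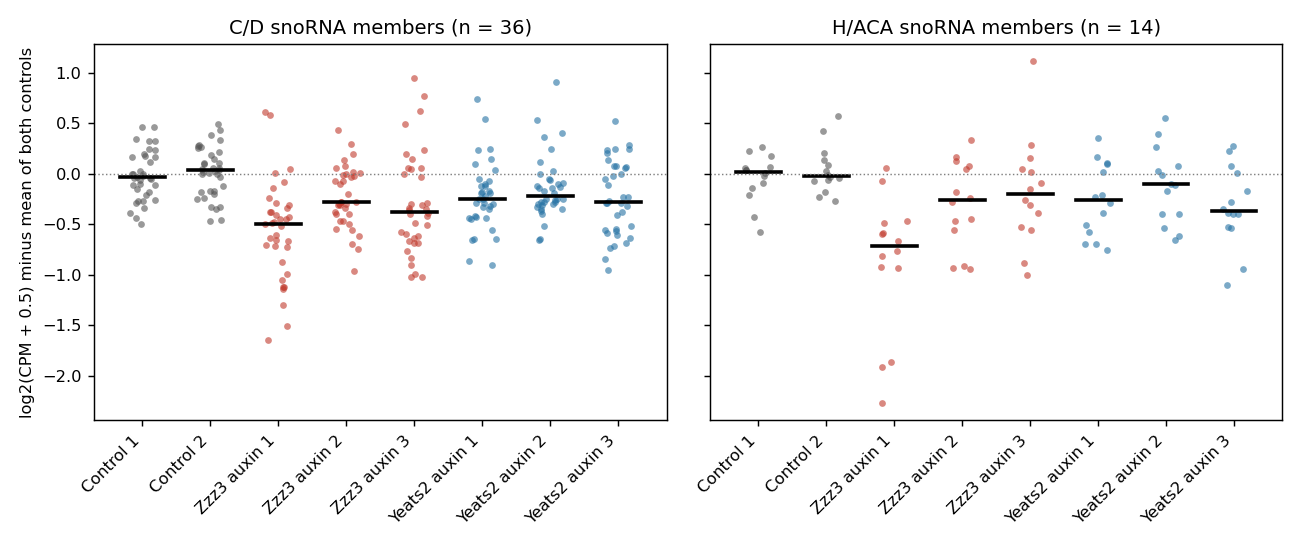
Points are single snoRNA genes and black bars their median in each library, as log2(CPM + 0.5) minus the mean of both controls, for 36 C/D (left) and 14 H/ACA genes (right). The medians of the 6 auxin libraries lie between -0.71 and -0.10, below both controls, with wide scatter among genes.

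Other short RNAs had medians of the same sign, though not every gene did. The 69 further genes annotated as snoRNA with a mean of at least 10 counts, 1 of them a *Scarna*, had medians of -0.50 in Zzz3_auxin and -0.33 in Yeats2_auxin, with 1 that fell, *Gm26202* in Zzz3_auxin, where 0.257% of all genes did. The 5 small Cajal body RNAs (*Scarna*), which guide modification of spliceosomal RNAs, had medians of -0.68 and -0.34, with 0 of 5 called by edgeR. In Zzz3_auxin 3 were lower at an unadjusted P under 0.05, against 10.1% of all genes, and 0 in Yeats2_auxin. DESeq2 called 2 in Zzz3_auxin (*Scarna9* and *Scarna17*, both lower), against 7.81% of genes. Over 284 tested genes shorter than 300 nt that are neither snoRNA nor small Cajal body RNA, the medians were -0.27 and -0.16. When the dependence of each library on the GC content and exonic length of genes was removed, the C/D medians were -0.13 and -0.09 and the H/ACA medians -0.23 and -0.25. The part of gene length in these values was not tested further.

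*Snora73b*, one of the U17 genes needed for cleavage of the rRNA precursor on the way to the small subunit, had the largest difference among genes with a mean of at least 100 counts. It was at 222 and 268 CPM in the controls, 50.2, 166 and 122 in Zzz3_auxin, and 207, 248 and 169 in Yeats2_auxin. All Zzz3_auxin libraries lay below both controls, whereas Yeats2_auxin overlapped them. The log2 FC was -1.12 ± 0.40 (SE) in Zzz3_auxin, with an adjusted P of 0.157, and -0.24 ± 0.40 in Yeats2_auxin, with an adjusted P of 0.818. Between the depletions it was 0.89 ± 0.36 higher in Yeats2_auxin (log2), with an adjusted P of 0.779. *Snora73b* lies within both *Rcc1* and *Snhg3*, its noncoding host, and *Snhg3* averaged 131 ± 9.65 CPM in the controls (SD, n = 2), 73.8 ± 19.8 in Zzz3_auxin and 81.2 ± 3.78 in Yeats2_auxin (SD, n = 3). The log2 FC of *Snhg3* was -0.83 and -0.69, with adjusted P of 0.0576 and 0.134, and that of *Rcc1* -0.16 and 0.03. The values of *Snhg3* lay below control to a like extent in both depletions, while those of *Snora73b* did not.

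Its near copy *Snora73a* was at 1.43 and 0.907 CPM in the controls, 1.07, 1.21 and 1.34 in Zzz3_auxin and 0.928, 0.579 and 0.752 in Yeats2_auxin, with log2 FCs of 0.04 ± 0.34 and -0.63 ± 0.35. The 16 to 33 reads behind each of its values, and the part of its span inside an exon of the same strand, leave this ratio uncertain. The groups overlapped in both comparisons with control.

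The other abundant H/ACA genes differed less. No annotated host spans *Snora17*. It was at 20.9 and 23.8 CPM in the controls, 13.9, 24.4 and 17.9 in Zzz3_auxin and 28.7, 29.4 and 23.6 in Yeats2_auxin. Its log2 FC was -0.25 ± 0.21 in Zzz3_auxin and 0.29 ± 0.21 in Yeats2_auxin, and no group stood apart from the controls. *Snora57* ranged from 4.41 CPM in Zzz3_auxin replicate 1 to 23.5 in control replicate 2, and its log2 FCs of -0.59 ± 0.47 and -0.42 ± 0.47 were close to their errors. *Snora31* in *Tpt1* had log2 FCs of -0.40 ± 0.28 and -0.26 ± 0.28, and *Snora41* in *Eef1b2*, which encodes a translation elongation factor, -0.43 ± 0.25 and -0.23 ± 0.25. For *Snora41* all auxin libraries lay below both controls.

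Among C/D genes, *Snord49a* came nearest to the threshold. It was at 18.9 and 19.7 CPM in the controls, 6.48, 13 and 11.2 in Zzz3_auxin and 14.2, 14.6 and 12.7 in Yeats2_auxin, so that every auxin library lay below both controls. The log2 FC was -0.92 ± 0.24 in Zzz3_auxin and -0.48 ± 0.24 in Yeats2_auxin, with adjusted P of 0.0801 and 0.370. Over the alternatives the adjusted P in Zzz3_auxin ranged from 0.000526 without a filter on low counts to 0.512 without control replicate 1. Its host *2410006H16Rik* had log2 FCs of -0.42 and -0.51. *Snord65*, from the same host and chosen after its values were seen, had -0.46 ± 0.29 and -0.50 ± 0.29.

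*Snord83b* and *Snord43*, both in introns of *Rpl3*, also had every auxin library below both controls. *Snord83b* was at 15.5 and 18.1 CPM in the controls, 7.44, 12.6 and 10.2 in Zzz3_auxin and 13.3, 13.7 and 12.5 in Yeats2_auxin. Its log2 FC was -0.74 ± 0.21 and -0.35 ± 0.21, with adjusted P of 0.0918 and 0.451. *Snord43* was closer to control, with log2 FCs of -0.43 ± 0.17 and -0.31 ± 0.16 and adjusted P of 0.169 and 0.404, and *Rpl3* itself had -0.28 and -0.22. *Snord17*, the longest member, had -0.21 ± 0.20 and -0.34 ± 0.20, and *Snord87* in *Snhg6* -0.55 ± 0.28 and -0.36 ± 0.28. Over all members, the libraries of Zzz3_auxin and control did not overlap, with Zzz3_auxin lower, for 21 of 50, against 18.9% of all genes, and those of Yeats2_auxin for 14, against 21.0%. They did not overlap with the auxin group higher for 2 members in Zzz3_auxin, against 16.8%, and for 3 in Yeats2_auxin, against 19.3%.

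**Figure D3:**
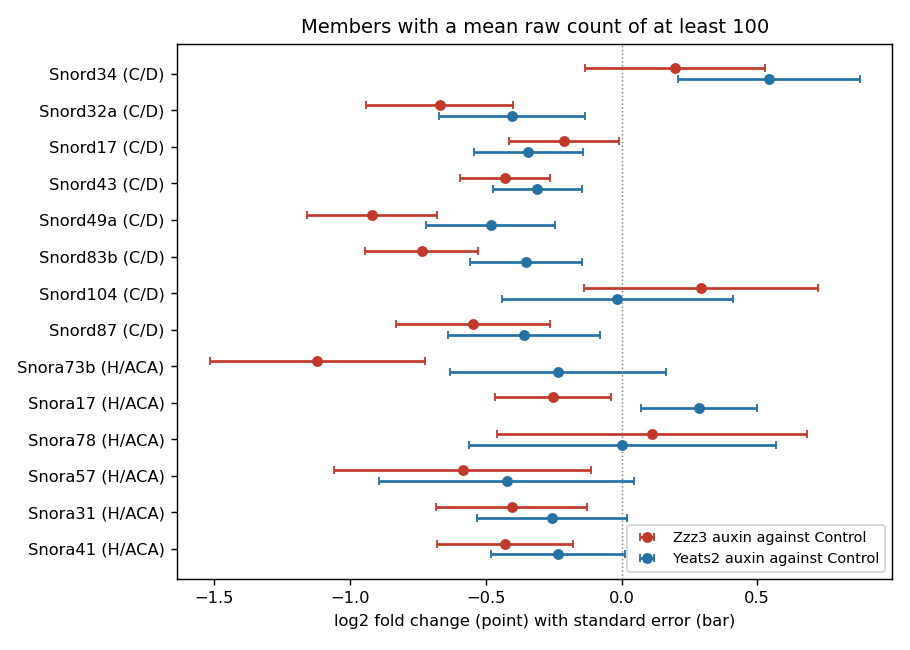
Log2 FC against control (point) and its standard error (bar) for the 14 snoRNA genes with a mean raw count of at least 100, in Zzz3_auxin (red) and Yeats2_auxin (blue). *Snora73b* and *Snord49a* lie farthest below 0 in Zzz3_auxin, at -1.12 and -0.92, and *Snord34* lies at 0.20 and 0.54. None passed the test.

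The snoRNAs of *Rpl13a*, a ribosomal protein gene whose snoRNAs are known for a role in lipid-induced stress, had unequal values. *Snord34* was at 31.0 and 53.5 CPM in the controls, 31.2, 44.8 and 70.1 in Zzz3_auxin and 59.6, 76.9 and 48.4 in Yeats2_auxin. *Snord32a*, from the same host, was at 33.2 and 53.3, then 18.8, 30.2 and 32.7, then 28.5, 42.0 and 27.5 CPM in those groups. The former overlapped control in both depletions, whereas the latter lay below both controls in every Zzz3_auxin library. Log2 FCs were 0.20 ± 0.33 and 0.54 ± 0.33 for *Snord34* and -0.67 ± 0.27 and -0.40 ± 0.27 for *Snord32a*, with adjusted P between 0.184 and 0.770. *Rpl13a* had log2 FCs of 0.03 and -0.05.

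Since both snoRNAs come from 1 host and were read in the same libraries, their ratio of raw counts does not depend on the scaling of libraries. *Snord34* had 0.935 and 1.01 times the reads of *Snord32a* in the controls, 1.65, 1.48 and 2.15 times in Zzz3_auxin, and 2.09, 1.83 and 1.76 times in Yeats2_auxin. The ratio was 0.970 ± 0.0499 (SD, n = 2) in control, 1.76 ± 0.346 (SD, n = 3) in Zzz3_auxin and 1.89 ± 0.177 (SD, n = 3) in Yeats2_auxin, and no auxin library overlapped the controls. *Snord32a* was also lower relative to *Snord35a*, with ratios of 15.3 and 18.1 in control, 9.38 to 12.8 in Zzz3_auxin and 9.95 to 12.3 in Yeats2_auxin, while the ratio of *Snord34* to *Snord35a* overlapped control in Zzz3_auxin and stood above it in Yeats2_auxin. The pair of *Snord34* and *Snord32a* was picked after its values were seen, from 13 pairs that share a host, and is given without a test.

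Of these 13 pairs, 6 had both means at or above 50 counts. *Snord43* had 1.22 and 1.10 times the reads of *Snord83b* in the controls, 1.58, 1.26 and 1.54 in Zzz3_auxin, and 1.14, 1.16 and 1.26 in Yeats2_auxin. *Snord42a* had 1.03 times those of *Snord4a*, its neighbour in *Rpl23a*, in both controls, 1.39, 1.45 and 2.24 in Zzz3_auxin and 0.750, 1.18 and 0.948 in Yeats2_auxin. Both ratios stood above control in each Zzz3_auxin library and overlapped it in Yeats2_auxin. How often ratios of other genes stand apart from the controls in this way was not counted.

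**Figure D4:**
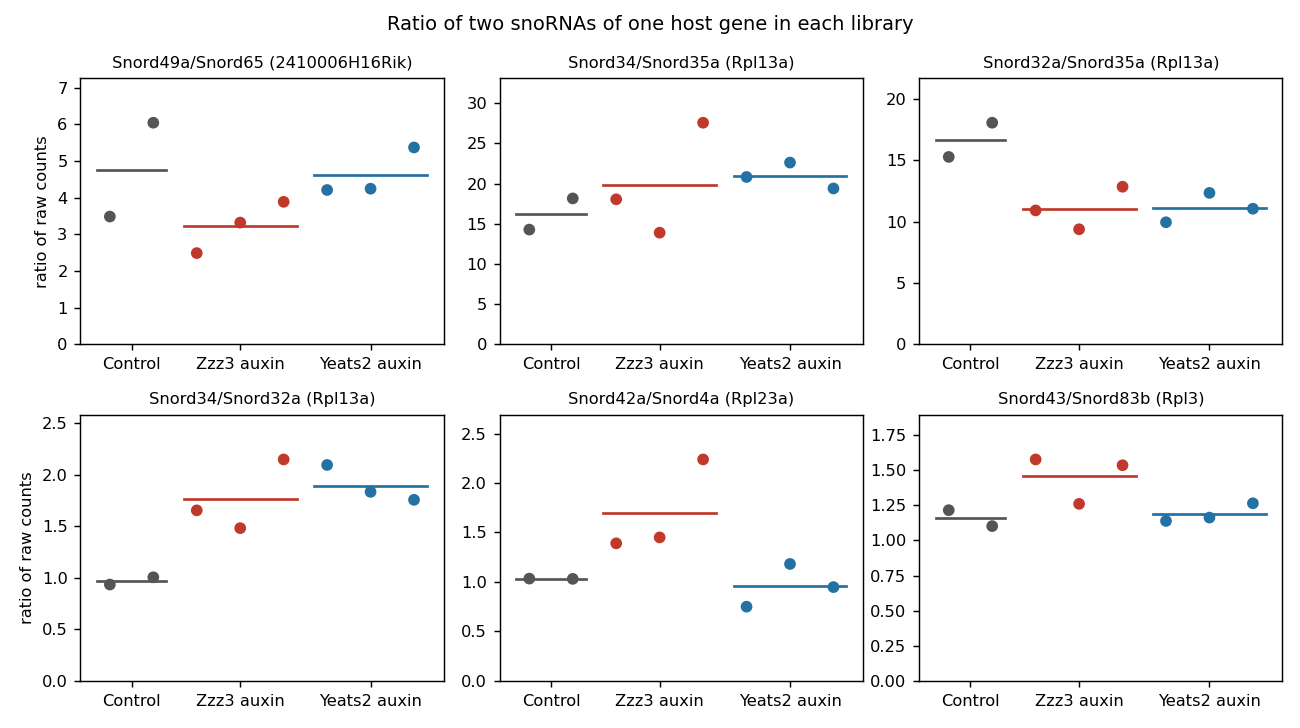
Ratio of raw counts between snoRNAs of 1 host gene in each library (points) with the group mean (line), for the 6 pairs with both means at or above 50 counts; each axis starts at 0. Only *Snord34*/*Snord32a* and *Snord32a*/*Snord35a* stood apart from the controls in the same direction in all 6 auxin libraries. The former was at 1.48 to 2.15 against 0.935 and 1.01. Both of these pairs hold *Snord32a*, so they are not independent.

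*Snora78* had its 4 highest values in the same 4 libraries as 7SK (*Rn7sk*), an abundant nuclear RNA that is not a snoRNA and has no host. *Rn7sk* was at 7916 and 16359 CPM in the controls, 11019, 11621 and 30038 in Zzz3_auxin and 12384, 20931 and 10511 in Yeats2_auxin. *Snora78*, in *Snhg9*, was at 9.87 and 22.6, then 9.78, 10.7 and 33.1, then 15.2, 22.3 and 11.4 CPM in the same order. Both were highest in Zzz3_auxin replicate 3, and the controls differed more than 2-fold from each other. *Snord104*, without an annotated host, was likewise highest in that library, at 9.30 CPM against 2.97 to 6.84 in the others. The log2 FCs of *Snora78* were 0.11 ± 0.57 and 0.00 ± 0.57, and those of *Snord104* 0.29 ± 0.43 and -0.02 ± 0.43, with adjusted P from 0.733 to 0.999. *Rn7sk* was set beside *Snora78* after the values were seen, and how many other genes rank the libraries alike was not counted. The part of whatever sets *Rn7sk* in these values was not tested.

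snoRNAs made outside introns have their own promoters in several cases, among them U8 and U13. *Snord118* (U8), needed for maturation of the large-subunit rRNAs, was at 1.73 and 2.22 CPM in the controls, 0.499, 1.28 and 0.736 in Zzz3_auxin and 0.851, 1.41 and 0.871 in Yeats2_auxin. All auxin libraries lay below both controls, on 11 to 49 reads each. The log2 FC was -1.21 ± 0.40 and -0.91 ± 0.39, with adjusted P of 0.125 and 0.307. *Snord13* (U13), by contrast, was at 0.444 and 0.408 CPM in the controls and 0.594 to 1.04 in Yeats2_auxin, on 9 to 27 reads. In Yeats2_auxin its log2 FC was 0.88 ± 0.45 with an adjusted P of 0.386. In Zzz3_auxin the log2 FC was 0.35. Those libraries stood at 0.05, 0.02 and 0.49 relative to the control mean, in log2(CPM + 0.5).

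Grouped by host, the 14 members in ribosomal protein genes had medians of -0.73 in Zzz3_auxin and -0.33 in Yeats2_auxin. The medians were -0.42 and -0.25 for the 24 in other protein-coding genes and -0.50 and -0.37 for the 7 in noncoding hosts. The 5 without an annotated host, U8 and U13 among them, had -0.25 and -0.02. With *Rpsa* moved to the ribosomal protein genes, the 15 and 23 members of the first classes had medians of -0.73 and -0.32 and of -0.43 and -0.26. The 97 ribosomal protein genes tested (same symbol rule) had medians of -0.46 and -0.33 themselves. Among members in ribosomal protein genes, named here after their values were seen, *Snord15a* in *Rps3* was at 4.05 and 4.40 CPM in the controls, 1.88, 2.42 and 2.81 in Zzz3_auxin and 2.51, 3.22 and 2.33 in Yeats2_auxin. Its log2 FCs were -0.85 ± 0.25 and -0.65 ± 0.24, with adjusted P of 0.0992 and 0.252. *Snora69* in *Rpl39* had -1.09 ± 0.30 and -1.02 ± 0.29, with adjusted P of 0.0887 and 0.159, and *Snord72* in *Rpl37* -1.07 ± 0.36 and -0.86 ± 0.35. All auxin libraries lay below both controls for these 3 genes.

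For the 45 members with a host, the snoRNA was compared with the exonic counts of the host gene. These counts can include reads of unspliced host RNA. The snoRNA stood below its host in 30 of 45 cases in Zzz3_auxin and in 32 of 45 in Yeats2_auxin, with median differences in log2 FC of -0.16 and -0.12. Only unique alignments were counted, and some hosts had low levels. *Rps3a1*, *Rpl23a*, *Tpt1* and *Rpl17* averaged 4.52, 9.03, 11.1 and 14.9 CPM, beside 1664 for *Rps3*. Whether reads of these hosts were lost to other alignments was not tested. Where several genes span a snoRNA, the host used is the one with the longest exonic length. *Snora73a* and *Snora73b* were therefore set against *Rcc1*, and with *Snhg3* in its place 30 members stood below their host in either depletion. The 35 hosts had medians of -0.27 and -0.17, and 3 of them fell in Zzz3_auxin, where 0.257% of all genes did: *Rpl39* (log2 FC -1.10, adjusted P 0.0396), *AA465934* (-1.12, 0.0368) and *Sf3b3* (-0.53, 0.0454). *Snora69* was at -1.09 ± 0.30, close to its host *Rpl39*. *Snord7*, in *AA465934*, was at -1.11 ± 0.58 on 2 to 23 reads per library, and its groups overlapped. *Snord111*, in the splicing factor gene *Sf3b3*, was at 0.27 ± 0.66 on 4 to 25 reads. Among the widest differences in Zzz3_auxin, snoRNA minus host, were -1.18 for *Snord66* in *Eif4g1*, which averaged 11.9 reads, -0.96 for *Snora73b* in *Rcc1* and 0.80 for *Snord111* in *Sf3b3*. Against *Snhg3* the difference was -0.29 for *Snora73b* and 0.87 for *Snora73a*.

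**Figure D5:**
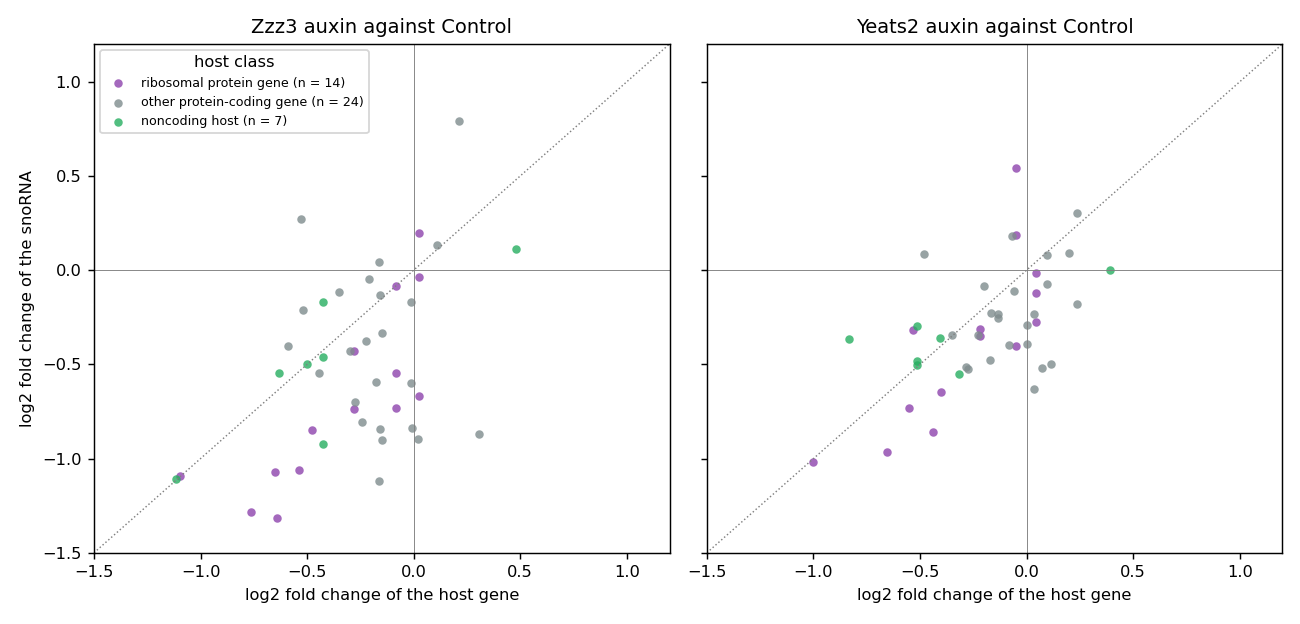
Log2 FC of each snoRNA (vertical) against that of its host gene (horizontal) for 45 members in 35 hosts, in Zzz3_auxin (left) and Yeats2_auxin (right), coloured by host class (*Rpsa* among other protein-coding genes); the dotted line marks equal values. More points lie below the line than above it, 30 and 32 of 45, and members that share a host share its horizontal value.

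Genes of the snoRNP machinery gave no call by edgeR either. Of 31 genes for core proteins, assembly and processing, 0 were called in any comparison, while 9 in Zzz3_auxin (5 lower, 4 higher) and 4 in Yeats2_auxin (2 lower, 2 higher) had an unadjusted P under 0.05. Over all genes 21.7% and 14.6% did, so the counts are near that background. DESeq2 called 4 in Zzz3_auxin (*Nhp2*, *Nop10*, *Rbm7*, *Ruvbl2*) and 1 in Yeats2_auxin (*Nop10*), beside 7.81% and 2.75% of genes with an adjusted P. The core methyltransferase gene *Fbl* (fibrillarin) had log2 FCs of -0.47 and 0.11, and the pseudouridine synthase gene *Dkc1* (dyskerin) -0.31 and -0.18. *Nop10* and *Nhp2*, whose products sit with dyskerin in H/ACA particles, lay on opposite sides of control, at -0.56 and -0.63 for *Nop10* and 0.71 and 0.40 for *Nhp2*. *Ruvbl2*, an assembly ATPase gene, was at 0.79 and 0.68, and *Rbm7*, of the nuclear exosome targeting complex, at -0.52 and -0.41. Adjusted P for these genes was at or above 0.0658. Of the related RNAs, *Terc* and *Rmrp* had 0 counts in every library. Such a count does not show by itself that the RNA was absent, and its reason was not tested. *Rpph1*, the RNA of RNase P, passed the filter on low counts. It had log2 FCs of 0.88 and -0.29 and adjusted P of 0.675 and 0.921.

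Between the depletions, 38 of 50 members were higher in Yeats2_auxin than in Zzz3_auxin by their log2 FC, with medians of 0.25 for C/D and 0.17 for H/ACA, against -0.01 over all genes. The other 12 members were lower, while 52.2% of all genes were. The libraries of both depletions did not overlap for 4 members higher in Yeats2_auxin, against 5.25% of all genes, and 2 lower, against 5.82%. At an unadjusted P under 0.05, 4 members were higher (*Snora73b*, *Snora17*, *Snord4a* and *Snord73a*), where 2.44% of all genes were, and none lower, where 3.81% were. *Snord4a* was at 1.57, 2.20 and 1.41 CPM in Zzz3_auxin and 2.79, 2.79 and 3.05 in Yeats2_auxin, beside 2.91 and 2.90 in control. It had a log2 FC of 0.71 ± 0.22 with an adjusted P of 0.779. *Snord59a*, in the ATP synthase gene *Atp5b*, stood on the other side, at 1.23, 1.06 and 1.27 CPM in Zzz3_auxin and 0.735, 0.579 and 0.871 in Yeats2_auxin (log2 FC -0.70 ± 0.33). Both were chosen after their values were seen. Without Zzz3_auxin replicate 1 the medians between the depletions were 0.07 for C/D and -0.02 for H/ACA, and without Yeats2_auxin replicate 2 they were 0.10 and 0.11. Without Zzz3_auxin replicate 3 the H/ACA median was 0.44, so the size of these medians depended on single libraries.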

How the data were processed

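Total RNA of ESCs was sequenced after ribosomal RNA depletion in 8 stranded libraries. The labels name poly(A) RNA, whereas the protocol in them describes total RNA. Raw counts per gene were deposited, with 1 file for each library. Per the methods, the authors trimmed reads, dropped those under 40 bases and rRNA reads, aligned to mm10 with STAR 2.5.3a and counted unique alignments with HTSeq 0.6.1p1 in union mode on Ensembl annotation. The strand option is not given in the sources used here. Symbols, positions and sequences came from GENCODE for GRCm38, the assembly of mm10, for 55141 of 55401 identifiers. The 5 tallies of unassigned reads were left out; reads that fell in no counted feature, which can include introns, amounted to 42.9 to 59.8 per 100 assigned.

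Genes were kept by filterByExpr (17532, all 50 members among them), scaled by TMM and fitted over all 8 libraries with edgeR 4.0.16 in R 4.3.3 (robust quasi-likelihood test, two-sided, group means). P values were adjusted by Benjamini and Hochberg over all genes tested, and a call needed an adjusted P under 0.05. The study used DESeq2, which was run here (1.42.0) as an alternative. Levels are TMM-scaled CPM. Sums over members and all marker values are CPM of all assigned reads, without TMM scaling. Errors of log2 FCs are standard errors, and counting error adds to low counts. The pipeline was tested on simulated data. Alternatives covered size factors, filters, the groups fitted, a replicate block, GC content and length, overlap with other genes, a mean of at least 100 counts and each library left out; removal of the GC trend alone, *Rpsa* as a ribosomal protein gene and *Snhg3* as the U17 host were chosen after seeing the data. A host is the annotated same-strand protein-coding or long noncoding gene that spans the snoRNA, the one with the longest exonic length where several. Named members are those most abundant, those with the largest log2 FCs among genes with a mean of at least 100 counts, those with textbook roles and those beside the count minimum, unless stated otherwise. The members and lists were chosen with earlier results of these data known. Tables were summarised in Python 3.11.15 with pandas 2.3.3, and figures drawn with matplotlib 3.10.9.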

Additional observations from a re-analysis of the deposited data

How the results depend on the processing

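Class medians kept their sign against control in every alternative, and calls of members changed in 3 of them, all in Zzz3_auxin. DESeq2 called 2 of the 33 members with an adjusted P (*Snord49a*, *Snord83b*), beside 7.81% of all genes with one. Without a filter on low counts 6 of 50 were called (these and *Snora21*, *Snord118*, *Snord32a*, *Snord72*), beside 1542 of 33007 genes. The fit without Zzz3_auxin replicate 2 called 4 of 50 (*Snora73b*, *Snord118*, *Snord49a*, *Snord83b*), beside 841 of 17359 genes. Leave-one-out counts of members thus ranged from 0 to 4. All of these were lower. For all genes, the 132 calls in Zzz3_auxin became 1079 with DESeq2, 1542 without the filter, 0 with only the compared groups and 0 to 841 with a library left out, and the 78 in Yeats2_auxin became 398, 553, 454, 0 to 217 with a library left out, and 132 after the GC and length correction. Between the depletions, where the count was 0, DESeq2 gave 3, no filter 117 and leave-one-out 0 to 1.

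The GC and length correction left medians of -0.13 (C/D) and -0.23 (H/ACA) in Zzz3_auxin, -0.089 (C/D) in Yeats2_auxin and 0.12 (C/D) between the depletions, while removal of the GC trend alone left C/D medians of -0.41 and -0.23 against control. A mean of at least 1 CPM gave C/D medians of -0.47 in Zzz3_auxin and 0.15 between the depletions. With a library left out, Zzz3_auxin medians ranged from -0.65 to -0.42 (C/D) and from -0.62 to -0.25 (H/ACA), those in Yeats2_auxin from -0.32 to -0.25 and from -0.39 to -0.25, and those between the depletions from 0.070 to 0.32 and from -0.024 to 0.44. The H/ACA sum without *Snora73b* gave a log2 ratio of -0.26 in Zzz3_auxin. The causes were not tested.

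For libraries of equal replicate number, correlations of their deviations from the group mean ranged from -0.34 to 0.31. For unequal numbers they ranged from -0.37 to 0.37. With 2 controls the deviations of each control mirror those of the other, so these values cannot tell whether the libraries were paired. The replicate block gave 42 and 32 calls over all genes in Zzz3_auxin and Yeats2_auxin, none of them a member. With 2 controls, differences of the size seen in most members cannot be told from the spread between libraries.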
